A study of Mus musculus with 8 samples.

Results

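The genes described here encode the subunits of the hypoxia-inducible factors (HIFs) and the proteins that tie these factors to oxygen. They are *Hif1a*, *Epas1*, *Hif3a*, *Arnt*, *Arnt2*, *Vhl*, *Hif1an* and *Egln2*, 8 genes of the 19751 that could be named on the array. They were listed by name, and their probes were found through the RefSeq accession that the arrays give for each probe. A HIF is a pair of bHLH-PAS proteins, an alpha subunit whose amount is set by oxygen and a stable beta subunit, ARNT or ARNT2. In the presence of oxygen, prolyl hydroxylases of the EGLN family modify the alpha subunit, the VHL protein then recruits it to a ubiquitin ligase, and it is degraded. The asparaginyl hydroxylase FIH, encoded by *Hif1an*, blocks the binding of coactivators to the alpha subunit. When oxygen is low, the alpha subunit escapes these steps, pairs with ARNT and activates genes of glycolysis, blood vessel growth and cell survival.

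AtT20 cells, a mouse line of pituitary corticotroph tumor origin, were cultured for 48 hr without agonist (control, 4 samples) or with HX630 at 10 μM (4 samples), both in medium with stripped serum. HX630 is a synthetic agonist of the retinoid X receptors. Each sample was read on 1 array in the Cy3 color, and nothing in the labels says whether the replicates came from separate cultures, so that p-values measure the spread between these samples only. The 6 corticotroph markers *Pomc*, *Tbx19*, *Pitx1*, *Neurod1*, *Crhr1* and *Pcsk1* were well above background on all 8 arrays, as were *Gh* and *Lhb*, hormone genes of other pituitary cells. *Gh* and *Lhb* were dim, with control means of -5.08 and -3.18 on the log2 scale given below, where *Pomc* had 8.03. Of the other hormone genes, *Fshb* was above background on 3 arrays and *Prl*, *Tshb* and *Cga* on none. Of the 8 markers tested, *Neurod1* and *Crhr1* were called higher and *Pcsk1* and *Gh* lower by the rule given next. Without its fold change threshold 5 were lower and 2 higher, where 27.2% of all genes were lower and 24% higher. Among the 5 were *Pomc*, *Tbx19* and *Pitx1*, with log2 fold changes of -0.45, -0.37 and -0.32. In such bulk RNA, fewer cells of a kind and less RNA per cell cannot be told apart.

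The signal given below is the log2 of the processed intensity minus the 75th percentile of the array, so that 0 stands for that percentile, which lay between 1335 and 1899 intensity units. Between 69.7% and 73.5% of all probes were well above background on each array. The small number of arrays limits the precision. The control samples were read on 1 slide and the HX630 samples on another, so slide and treatment cannot be told apart in any value below. A gene was represented by its brightest tested probe and was called changed at an adjusted p below 0.01 (limma, Benjamini-Hochberg over 28553 probes) with a fold change above 1.5. By this rule 8.38% of the 15320 genes tested were called higher with HX630 and 11.2% were called lower.

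Of the 8 genes, 7 had a tested probe. *Arnt* was called lower with HX630, at 38.8% of the control signal, and it was the only one of the 7 that was called. None was called higher. In the main scaling the other 6 genes differed by less than 1.3-fold. Without the fold change threshold, *Hif1a* and *Vhl* were higher at an adjusted p below 0.01 and *Epas1* and *Arnt* were lower, 2 genes each way, where 24% of all genes were higher and 27.2% lower. The 4 HX630 arrays did not overlap the 4 control arrays for any of the 7 genes, but the same held for 61.5% of all genes tested. A lack of overlap was thus common on these arrays.

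**Figure D1:**
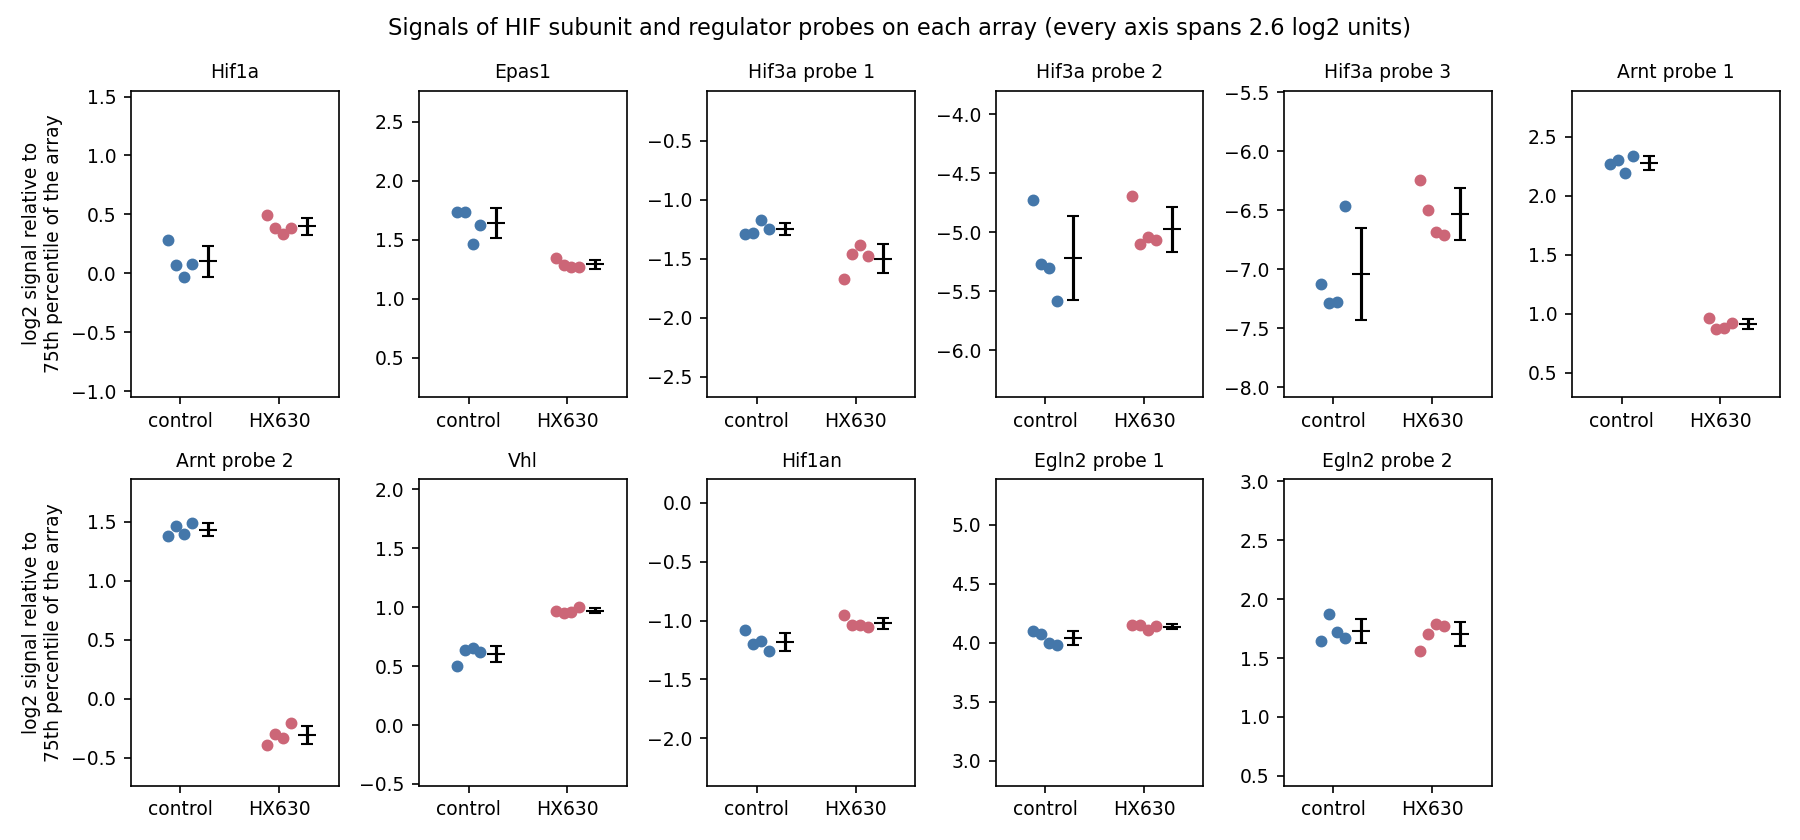
Log2 signal relative to the 75th percentile of the array (vertical axis, 2.6 log2 units in every panel) on the 4 control and 4 HX630 arrays for the 11 tested probes of the 7 genes; points are arrays and black bars the mean and SD of each group. Both *Arnt* probes fell by more than 1.3 log2 units, and no other probe moved by more than 0.51.

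The DNA just before the start of *Arnt* is shown because this was the gene that fell, and that of its partner *Hif1a* is set beside it because it did not. Each is given as the 250 bases before the start of transcription in RefSeq on GRCm38.p6, on the strand of the gene, with the core of the hypoxia response element in capitals. That core was searched as ACGTG or GCGTG on either strand. The *Arnt* window lies at chr3:95434140-95434389 on the plus strand and the *Hif1a* window at chr12:73907617-73907866 on the plus strand. The build of the array's own design is mm9, and no coordinates were converted.
Arnt: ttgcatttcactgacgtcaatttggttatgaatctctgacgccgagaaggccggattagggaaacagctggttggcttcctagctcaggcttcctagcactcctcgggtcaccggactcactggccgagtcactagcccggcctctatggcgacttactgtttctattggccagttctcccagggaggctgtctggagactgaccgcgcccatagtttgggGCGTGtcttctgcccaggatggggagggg
Hif1a: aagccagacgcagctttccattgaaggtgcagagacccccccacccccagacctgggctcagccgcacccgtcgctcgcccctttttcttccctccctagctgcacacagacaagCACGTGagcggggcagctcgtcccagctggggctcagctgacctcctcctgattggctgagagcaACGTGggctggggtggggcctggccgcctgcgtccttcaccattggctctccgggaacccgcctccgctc

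The *Arnt* window held the core once, as GCGTG starting 29 bases before the start, and the *Hif1a* window held ACGTG 3 times. The capitals CACGTG in the *Hif1a* window are a palindrome that counts once on each strand. Over all 32851 promoter windows of this length, 38.6% held ACGTG or GCGTG on either strand. Of the members, 7 had a window in the table and 4 of these, *Hif1a*, *Hif3a*, *Arnt* and *Egln2*, held the core. The DR1 element of the retinoid X receptors, 2 direct copies of AGGTCA with 1 base between them, was in none of the 8 member windows and in 0.0335% of all windows. A single AGGTCA, which 14.0% of all windows hold, was found before *Hif1a* and *Hif1an*. These are matches of letters and no measure of binding.

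Of the beta subunits, the common partner of the alpha subunits, *Arnt*, fell. Its brighter probe read 2.27, 2.30, 2.20 and 2.34 on the control arrays and 0.97, 0.87, 0.88 and 0.92 on the HX630 arrays. The lowest control array was more than 1.2 log2 units above the highest HX630 array. The means were 2.28 ± 0.059 (SD, n = 4) and 0.91 ± 0.043 (SD, n = 4), a fall of 2.58-fold with a log2 fold change of -1.37 (standard error 0.042, 95% interval -1.46 to -1.27, adjusted p = 2.45e-07 by limma).

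The other probe of *Arnt* gave a larger fall. It read 1.38, 1.47, 1.40 and 1.49 on the control arrays and -0.39, -0.30, -0.33 and -0.21 on the HX630 arrays. The log2 fold change, -1.74 (standard error 0.050), had an adjusted p of 2.03e-07 by limma, and the signal was 29.9% of control. The arrays of the groups lay far apart on both probes. The gap between the probes was 0.84 ± 0.040 (SD, n = 4) log2 units in the control and 1.22 ± 0.10 (SD, n = 4) with HX630, so that the probes fell by unequal amounts (exact permutation test, two-sided, p = 0.0286). This is the smallest p that 4 arrays against 4 can give. The arrays name both probes by the same RefSeq accession, and which part of the transcript each one reads is not given in the files.

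Set among all genes tested, 383 had a lower log2 fold change than *Arnt* by its brighter probe, which places it in the lowest 2.51% of the 15320 genes. Of the 1710 genes called lower, 376 fell further. *Arnt2*, which encodes the other beta subunit and is best known from neural tissue, had a single probe, which stayed at background on each array. Its processed intensity was between 2.86 and 4.27 units, so it was left untested.

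The alpha subunits moved little and not in 1 direction. *Hif1a*, the ubiquitous alpha subunit, read 0.28, 0.074, -0.028 and 0.082 on the control arrays and 0.50, 0.39, 0.33 and 0.38 on the HX630 arrays. The highest control array, replicate 1, came close to the lowest HX630 array. The log2 fold change was 0.30 (standard error 0.070, 95% interval 0.13 to 0.46, adjusted p = 0.00745 by limma), which is 1.23-fold and under the fold change threshold. With 1 array left out at a time the log2 fold change stayed between 0.25 and 0.36, but the adjusted p ranged from 0.00107 to 0.0214 and was below 0.01 only without control replicate 1. With spike-in scaling the value was 0.52 (adjusted p = 2.1e-04), and with normexp it was 0.23 with an adjusted p of 0.012 or 0.0138.

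*Epas1*, which encodes HIF-2 alpha and is most abundant in endothelium and a few other tissues, was lower. Its brightest probe read 1.74, 1.73, 1.46 and 1.63 in the control and 1.35, 1.28, 1.27 and 1.26 with HX630. Each HX630 array was below each control array. The log2 fold change was -0.35 (standard error 0.065, 95% interval -0.50 to -0.20, adjusted p = 0.00234 by limma), or 78.6% of the control signal, again under the threshold. When the arrays were scaled to the spike-in control probes, the value was -0.13 with an adjusted p of 0.105, and with background correction by normexp it was -0.18 with an adjusted p of 0.0761 or 0.0867, depending on the offset. Over all settings the adjusted p ranged from 4.91e-04 to 0.105. The other 2 probes of *Epas1* were not tested, since 1 was above background on a single control array and the other on no array.

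*Hif3a* has several splice forms, among them one that inhibits the other HIFs, and its probes did not give 1 direction. The brightest read -1.29, -1.28, -1.17 and -1.25 in the control and -1.67, -1.46, -1.39 and -1.47 with HX630, with no overlap. The change in log2 signal was -0.25 (standard error 0.064, adjusted p = 0.011 by limma), and it was -0.028 with spike-in scaling. The second probe had a log2 fold change of 0.25 (95% interval -0.18 to 0.67, adjusted p = 0.279). The third had 0.51 (95% interval 0.041 to 0.97, adjusted p = 0.0607) and was above background on 1 control array and on all 4 HX630 arrays. No probe of *Hif3a* was called, and the mean of the 3 probes had a log2 fold change of 0.17.

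**Figure D2:**
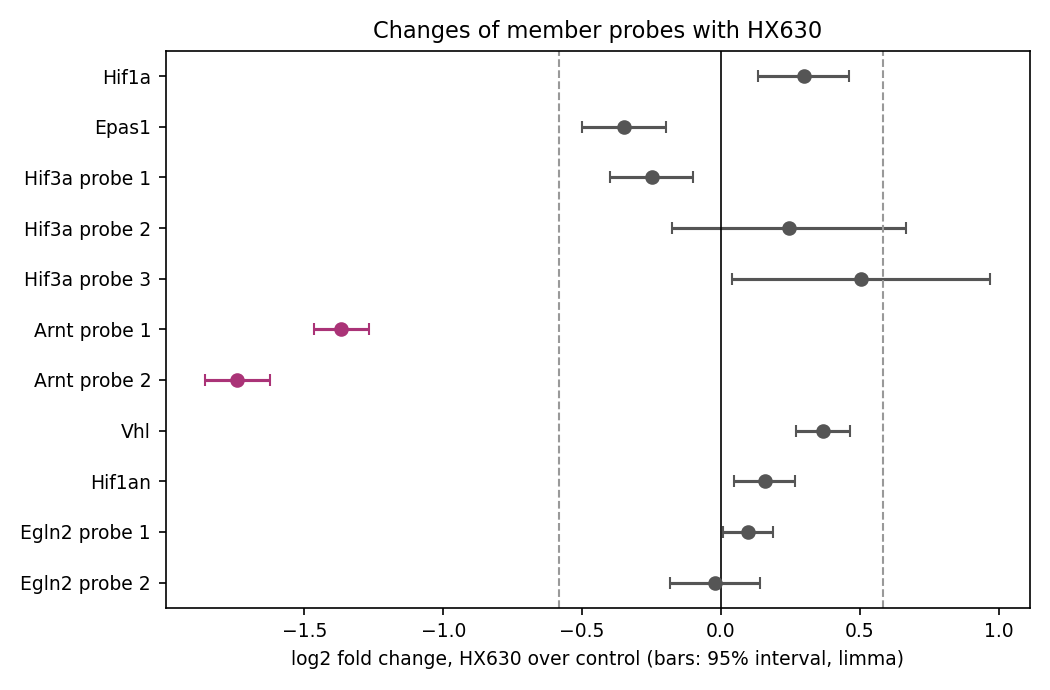
Log2 fold change of the 11 tested probes (horizontal axis, HX630 over control) with the 95% interval of limma; dashed lines mark a fold change of 1.5 and colored points are called. The *Arnt* probes, at -1.37 and -1.74, are beyond the line and all other points lie within it.

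Because the members are read on the same array, the change of 1 member relative to another is not moved by scaling each array with 1 constant. Quantile normalization and normexp can move it. The signal of *Hif1a* relative to *Arnt* rose by 1.66 log2 units with HX630, that of *Epas1* relative to *Arnt* by 1.02 and that of *Hif3a* relative to *Arnt* by 1.12. The HX630 and control arrays did not overlap in any of these differences (exact permutation test, two-sided, p = 0.0286, or 0.0343 adjusted over the 6 differences computed). For every difference against *Arnt*, this follows from its own fall and the small changes of the other genes. These p-values are thus no separate evidence. *Hif1a* relative to *Epas1* rose by 0.65 log2 units (same p), although this was 0.40 or 0.41 with normexp. This restates the opposite changes of these genes given above. *Vhl* relative to *Arnt* rose by 1.73 (same p), whereas *Vhl* relative to *Hif1a* changed by 0.070 (exact permutation test, two-sided, p = 0.657). These are unequal changes of probes and not amounts of protein, and levels of different probes cannot be ranked.

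Among the regulators, *Vhl*, the substrate receptor of the ubiquitin ligase, was higher with HX630. It read 0.50, 0.64, 0.65 and 0.62 on the control arrays and 0.97, 0.95, 0.96 and 1.00 on the HX630 arrays. The HX630 arrays lay close together, with an SD of 0.023, and all above the control arrays. The log2 fold change was 0.37 (standard error 0.042, 95% interval 0.27 to 0.46, adjusted p = 1.5e-04 by limma), a fold change of 1.29. It was under the threshold in the main scaling and just over it, at 0.59, with spike-in scaling. With normexp it was lower, at 0.23 (adjusted p = 0.00748 or 0.00875).

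*Hif1an* (FIH) and *Egln2* (the prolyl hydroxylase PHD1) had small differences in the main scaling. *Hif1an* read -1.08, -1.20, -1.17 and -1.26 in the control and -0.95, -1.04, -1.04 and -1.05 with HX630, a difference of 0.16 in log2 signal (95% interval 0.046 to 0.27, adjusted p = 0.0224 by limma). The brighter probe of *Egln2* read 4.10, 4.08, 3.99 and 3.98 in the control and 4.15, 4.15, 4.11 and 4.14 with HX630. Its log2 fold change was 0.098 (95% interval 0.0087 to 0.19, adjusted p = 0.0587). With spike-in scaling *Hif1an* had 0.38 (adjusted p = 1.33e-04) and *Egln2* 0.32 (adjusted p = 3.24e-04). With the array median *Hif1an* had 0.24 (adjusted p = 5.76e-04) and *Egln2* 0.19 (adjusted p = 0.00697). *Egln2* also had 0.17 (adjusted p = 0.0102) with quantile normalization and 0.169 or 0.165 (adjusted p = 0.0206 or 0.0288) with normexp. Neither gene had overlapping groups on these probes. The groups of the second *Egln2* probe overlapped, with a log2 fold change of -0.022 (95% interval -0.18 to 0.14, adjusted p = 0.804).

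The 3 remaining HIF hydroxylases all had negative log2 fold changes. *Egln3*, which encodes PHD3 and is itself induced by HIF, had a mean of -1.14 ± 0.15 (SD, n = 4) in the control. With HX630 it fell to -3.76 ± 0.175 (SD, n = 4), or by 6.16-fold (log2 fold change -2.62, adjusted p = 6.7e-07 by limma), and its second probe gave -2.52. *Egln1* (PHD2), the main hydroxylase of HIF-1 alpha in most cells, was called at -0.64 (adjusted p = 3.89e-04). This is 1.56-fold, close to the threshold, and it was not called with quantile normalization, with scaling to the array median or with spike-in scaling. *P4htm*, a transmembrane prolyl hydroxylase, had -0.48 (adjusted p = 5.15e-05) and was not called. *Egln2* was thus the only *Egln* gene without a call, and the only one with a positive value on its brightest probe.

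Other genes of the pathway are given by lists, beside the background of 8.38% of all genes called higher and 11.2% called lower and a median log2 fold change of -0.034 over all genes. Spike-in scaling moved that median to 0.19. The lists share genes, among them *Pkm*, *Egln3* and *P4ha1*, and a shared gene counts in each, so the lists are not separate observations. Of 10 genes listed with the VHL ligase, among them the elongins, *Cul2* and *Rbx1*, 0 were called in the limma fit. At an adjusted p below 0.01 alone, 2 were higher and 1, *Usp20* (-0.55), was lower. The list also holds *Usp33*, and both *Usp* genes encode enzymes that remove ubiquitin and are not parts of the ligase. The median was 0.12, or 0.34 with spike-in scaling. A dimmer probe of *Ube2d2a* was called higher (0.61), while its brightest probe had -0.083. *Ube2d1*, a ubiquitin-conjugating enzyme gene at 0.55, was called higher with quantile normalization, the array median or spike-in scaling and without control replicate 1. Of 24 coactivators and proteins that control the stability or activity of HIF, 1 was called higher, the SUMO protease gene *Senp1* (0.70), and 1 lower, the pyruvate kinase gene *Pkm* (-0.93), with a median of -0.10 that turned to 0.022 with quantile normalization and to 0.12 with spike-in scaling. *Senp1* was not called with normexp (0.40 or 0.47). The coactivator genes *Ep300* (-0.20, adjusted p = 0.0391) and *Crebbp* (-0.49, adjusted p = 0.119) were not called.

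Of 13 genes tested from a list of other factors with PAS domains, 5 were called lower and 1 higher. Most belong to the bHLH-PAS family of the HIF subunits, but *Per1*, *Per2* and *Per3* have no bHLH domain. The median was -0.30, or -0.075 with spike-in scaling and -0.54 for the mean of all probes. *Npas4*, an activity-induced factor that pairs with ARNT or ARNT2, had the largest fall, a log2 fold change of -2.40 (adjusted p = 2.04e-07 by limma). *Arntl* (-0.98), *Per1* (-0.84), *Per2* (-0.63) and *Npas2* (-0.80), which belong to the circadian clock, were also called lower, *Npas2* with a probe above background on 6 of the 8 arrays. Of the other clock genes in the list, *Clock* (0.064), *Per3* (0.32) and *Arntl2* (-0.20) were not called. *Per2* was not called with quantile normalization, the array median or spike-in scaling, nor *Npas2* with spike-in scaling or normexp. *Npas1* was called higher, at 0.94 (adjusted p = 7.47e-06). *Ahr*, the dioxin receptor and another partner of ARNT, had 0.034 (adjusted p = 0.72).

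Enzymes that need the same oxygen and 2-oxoglutarate as the HIF hydroxylases include histone and DNA demethylases and the collagen hydroxylases. Of 39 tested, 9 were called lower and 1 higher, with a median of -0.15 that turned to 0.075 with spike-in scaling. The 9 include *P4ha2*, which passed the filter only through the control arrays, so its call is no support. The ranking here takes the brightest probe of each gene, among those above background on all 8 arrays. The collagen hydroxylases *P4ha1* (-1.66, adjusted p = 9.44e-07) and *Plod1* (-1.16, adjusted p = 2.08e-06) had the largest calls, followed by *P3h1* and *Jmjd6* (2.01-fold lower). *P3h1* was called higher by its brighter probe (1.02) and lower by its dimmer probe (-1.63), so its direction depends on the probe. The number called higher was 2 with the array median or spike-in scaling and 0 for the mean of all probes.

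The list of HIF target genes covers genes known to be driven by HIF in at least some tissues. Of 63 tested, 37 were called lower and 1 higher, with a median log2 fold change of -0.83, which was -0.61 with spike-in scaling. The 37 include *Pfkfb3* and *P4ha2*, which passed the filter only through the control arrays, so their calls are no support. With these 2 genes set to the bounds given at the end, the median was still -0.83. The list was written with earlier results of these data known, so it is no independent evidence of its direction. By the brightest probe of each gene, the largest falls in the list among probes above background on all 8 arrays were those of *Car9* (-4.67, adjusted p = 3.43e-07), which encodes a carbonic anhydrase, and of the hexokinase gene *Hk2* (-3.18, adjusted p = 8.92e-08). The chemokine receptor gene *Cxcr4* went the other way, at 2.18 (adjusted p = 9.11e-08). *Egln3*, described above, came next, followed by *Adm* (-2.60, adjusted p = 3.3e-07), which encodes the vasodilator peptide adrenomedullin. The part of the fall of *Arnt* in these values was not tested.

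**Figure D3:**
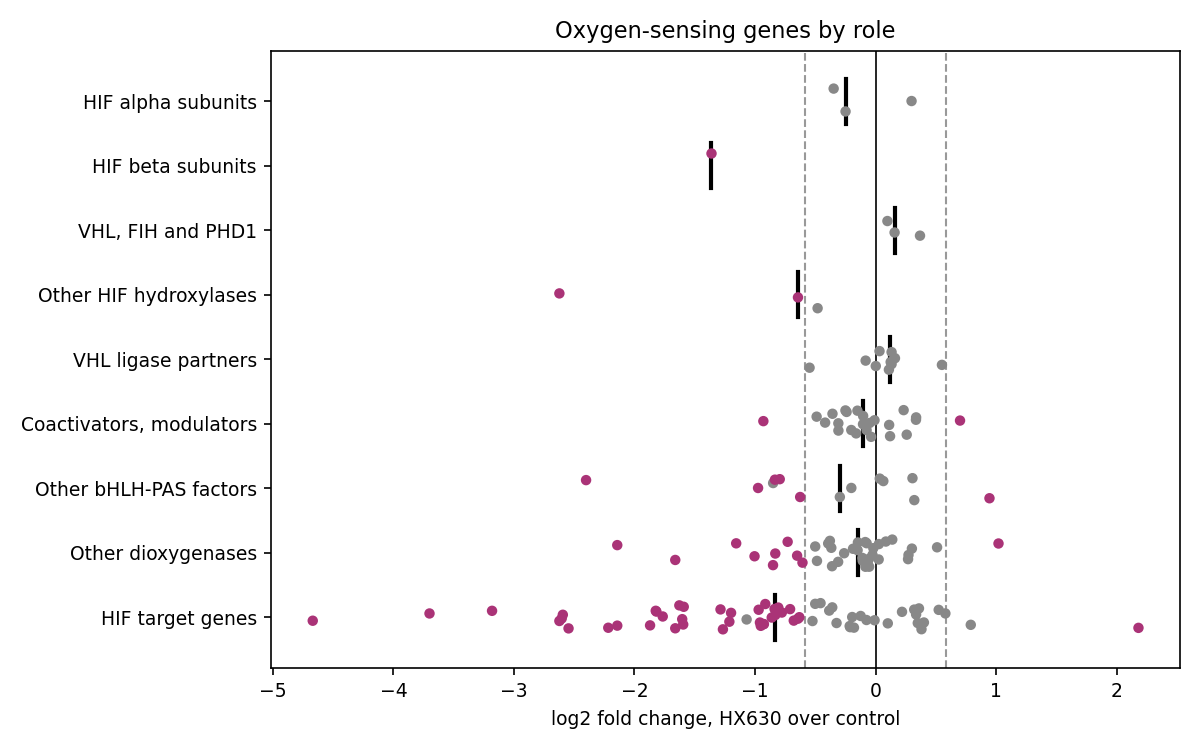
Log2 fold change (horizontal axis, HX630 over control) of each tested gene, 1 point per gene by its brightest probe, in rows by role; black lines are medians, colored points are called and dashed lines mark a fold change of 1.5. The row of HIF target genes has its median at -0.83, while the alpha subunits and the regulators with VHL, FIH and PHD1 stay within the dashed lines.

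The genes whose signals over the 8 arrays were most like that of *Arnt* were *Scarb2*, a lysosomal membrane protein gene (Pearson r = 0.9994), *Hexa*, which encodes a lysosomal hexosaminidase subunit (r = 0.9994), and *Id2*, an inhibitor of bHLH factors (r = 0.9994), of 14307 genes compared. Their log2 fold changes were -1.29, -1.39 and -1.76. *Vhl* was most like *Sfpq* (r = 0.9964), *AW146154* (r = 0.9956) and *Klk1b4* (r = 0.9952), which had log2 fold changes of 0.45, 0.32 and 0.96. These correlations run over 4 control and 4 HX630 arrays and are driven by the difference between the groups.

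**Figure D4:**
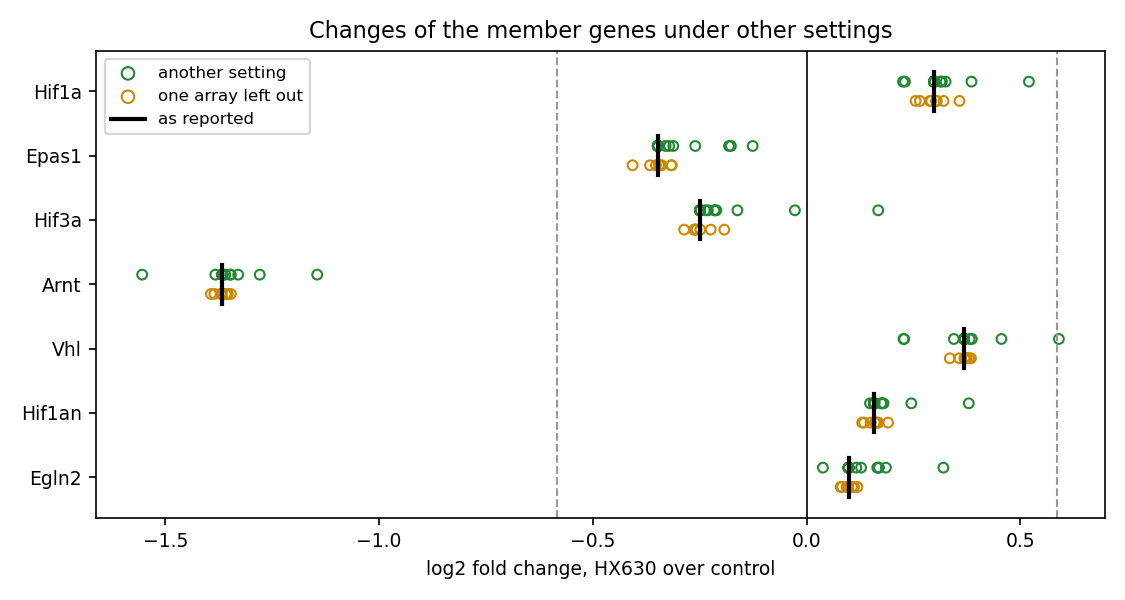
Log2 fold change of the 7 tested member genes (horizontal axis) as reported (black line), under 18 other settings (green circles) and with each of the 8 arrays left out (orange circles); dashed lines mark a fold change of 1.5. *Arnt* stays between -1.55 and -1.14, beyond the dashed line in every case, and *Hif3a* is the only gene whose circles lie on both sides of 0.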

How the data were processed

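RNA of 8 samples was hybridized to 1-color Agilent mouse 4x44K v2 arrays. The authors deposited the output of Agilent Feature Extraction 10.7.3.1 for each array, in which the processed intensity is corrected for background and for trends across the array but not scaled between arrays. They also deposited log2 values made in GeneSpring, which equal the log2 intensity less the 75th percentile of each array, within 0.0013. Each array has 44397 spots, and its 1377 control spots, as well as outlier spots, were dropped. Spots of a probe were averaged on the log2 scale after scaling, which gave 39429 probes, of which 26055 were paired with a symbol by accession in a RefSeq table on GRCm38.p6. A probe was tested when at least 4 of 8 arrays had it well above background.

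Groups were compared with lmFit and eBayes of limma 3.58.1 in R 4.3.3, without a replicate block. Differences within an array used an exact permutation test over 70 regroupings. Tested on simulated data for HX630 against control (28553 probes), the code recovered 78% of 200 probes changed by 1 on the log2 scale, with 0 false calls. The members, lists and tests were chosen with earlier results of these data known. Named genes were the members, the remaining HIF hydroxylases, up to 4 called genes with the largest change per list above background on all 8 arrays, and the 3 genes most correlated with each of the 2 most changed members. *Per2*, *Npas2*, *Cxcr4*, *Ahr*, *Ep300*, *Crebbp*, *Ube2d1*, *Ube2d2a*, *Usp20*, *Usp33*, *Clock*, *Per3*, *Arntl2*, *Cited2*, *Ddit4*, *Pfkfb3*, *P4ha2* and the AHR target genes were named after their values were seen. The methods' t-test, other scalings, background corrections, filters and thresholds, the mean of all probes, a replicate block and each array left out served as alternatives. The other probes of a gene as alternatives were added after the data were seen. 1 gene is not reported here and was left out of the lists.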

Additional observations from a re-analysis of the deposited data

Results flagged for a closer look

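A group of 4 arrays was singled out when its highest or lowest array was apart from the rest by a share of the group's range above Dixon's 95% critical value. This occurred in 4 of 54 groups checked, where about 1 in 20 groups, or 2.7, would be singled out by chance, and all 4 were HX630 groups. HX630 replicate 1 was the array apart in 3 of them. For *Hif1an* it read -0.95 against a mean of -1.04 on the other arrays (ratio of the gap to the range 0.864). Without it the log2 fold change was 0.13 with an adjusted p of 0.0541. For the second probe of *Hif3a* it read -4.69 against -5.07 (0.859). For *Jmjd6* it read 0.76 against 0.66 (0.848). HX630 replicate 2 was apart for *Egln1*, at -3.29 against -3.09 (0.945).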

How the results depend on the processing

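*Arnt* was called lower under all 18 other settings and with each of the 8 arrays left out, with log2 fold changes of -1.55 to -1.14 and of -1.39 to -1.35. The number of members called lower was 1 and of those called higher 0 in every setting except 2, and with any array left out it was 1 and 0. Without a fold change threshold, 2 members were higher and 2 lower, and 13009 probes were called in all. With spike-in scaling 1 member was called higher (*Vhl*, 0.59). The sign of *Hif3a* differed between its probes, with 0.17 for their mean and 0.25 and 0.51 for its other probes. The interval of the second probe spans 0 (-0.18 to 0.67), and the third was above background on only 1 control array. The other probe of *Egln2* had -0.022 with an interval of -0.18 to 0.14, which gives no direction. The cause was not tested. Between 32 and 43 HIF target genes were called lower under the other settings. Those called higher numbered 4 with quantile normalization, 3 with the array median, 2 with the percentile over detected probes, 5 with spike-in scaling, 3 with array weights, 6 without the fold change threshold, 2 at an adjusted p below 0.05, and 1 to 2 with an array left out (2 when HX630 replicate 4 or either of control replicates 1 and 2 was missing). Probes called higher and lower across the array numbered 2131 and 3185, against 2831 and 2658 with the array median and 4189 and 1890 with spike-in scaling. With normexp they numbered 1240 and 2667 at offset 50 and 1355 and 2907 at offset 16.

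Same-numbered control and HX630 arrays deviated together with correlations of -0.0093 to 0.52, and not every array matched its own number best, so the numbers were not taken as pairs. With a replicate block, 5556 probes were called, the members called were 0 higher and 1 lower as before, and *Arnt* had an adjusted p of 5.5e-05, the highest over its settings, whose lowest was 2.1e-09. Dim probes limit what can be said of *Arnt2* and of the third probe of *Hif3a*.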

Other observations

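ARNT is also the partner of the dioxin receptor AHR. Target genes of AHR, looked at after the fall of *Arnt* had been seen, were mostly too dim to be tested. *Cyp1a1*, *Cyp1a2* and *Ahrr* were above background on none of the 8 arrays, *Cyp1b1* on 2 HX630 arrays and *Nqo1* on 1. *Tiparp* was above background on all 8 arrays, and its log2 fold changes of 0.12 (adjusted p = 0.0816 by limma) and 0.074 (adjusted p = 0.257) for its 2 probes were not called.

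Among HIF target genes, 12 of the 63 tested had a positive log2 fold change. *Cited2*, which encodes an inhibitor of HIF, had 0.34 (adjusted p = 4.08e-04), and *Ddit4*, which encodes an inhibitor of mTOR signaling, had 0.40 (adjusted p = 4.21e-05). Both were under the fold change threshold. *Pfkfb3* and *P4ha2* stayed at background on each HX630 array. *Pfkfb3* was at least 3.73-fold lower with HX630 and *P4ha2* at least 2.10-fold lower. Both had passed the filter only through the control arrays, so their calls are not taken as tests, although the counts of the lists above include them. The bounds set the control mean against the higher of the lowest detected signal and the signal of the probe, averaged over the HX630 arrays.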
